A study of Mus musculus with 12 samples.

Results

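The Wnt ligands, their receptors and the modulators of the pathway were examined for N6-methyladenosine (m6A), a methyl mark on RNA, in mouse lung. The 60 genes were chosen by name from the Wnt pathway, and their peaks are those whose assigned gene name is 1 of the 60. Of 15332 gene names with a peak in either group, 47 belonged to this set. Lung tissue came from female BALB/c mice of 6 to 8 weeks. The OVA group of 3 mice, a model of allergic asthma, was sensitized with ovalbumin and aluminum hydroxide on days 0 and 7 and breathed 3% ovalbumin for 30 min on days 14 to 20. The 3 control mice of the PBS group were given phosphate-buffered saline alone on the same days, without ovalbumin or aluminum hydroxide. Tissue was taken on day 21. From each mouse, fragmented RNA was sequenced both after pull-down by an antibody to m6A (IP) and without it (input).

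Wnt ligands are secreted lipid-modified proteins that bind Frizzled receptors together with the co-receptors Lrp5 and Lrp6. The signal passes through Dishevelled and stops the destruction complex from breaking down beta-catenin, which then acts in the nucleus with TCF/LEF factors. In the lung the pathway is known for its part in branching of the airways, in the upkeep of alveolar epithelium and in repair.

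A peak is a stretch of exonic RNA where IP reads exceeded input reads, and fold enrichment gives the IP signal relative to input there. Each group had 1 peak list for its 3 mice together, with 27292 peaks for OVA and 26102 for PBS. A difference between the lists therefore has no replicate check, and no test between the groups was made here. Read counts of single peaks were not used here, so a fold enrichment has no interval. In whole lung, fewer cells of a type and less RNA per cell cannot be told apart.

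Of the 60 genes, 47 had a peak by assigned name (78.3%), against 50.6% of the 21900 genes that RefSeq lists as protein-coding. Of the 47, 43 had a peak that was also called on the gene itself, a limit set after the data were seen. A peak assigned to a protein-coding transcript was found for 35. No share over all genes was computed for these 2 counts. By assigned name, both lists held 43 of the 47. Wnt10a had peaks in the OVA list alone, and Wnt10b, Wls and Sfrp5 in the PBS list alone. These are 2.13% and 6.38% of the 47, and over all gene names with a peak in either list the shares were 11.5% for OVA alone and 7.92% for PBS alone. Most Wnt pathway genes marked in 1 group were thus marked in the other as well.

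The Wnt genes had 98 OVA and 103 PBS peaks. Of these, 9 OVA peaks (9.18%) shared no exonic base with any PBS peak, against 19.4% of all OVA peaks. In the other direction, 11 PBS peaks (10.7%) shared none with an OVA peak, against 14.5% of all PBS peaks. With an overlap of 50% of both peaks required, 22 of the 98 OVA and 25 of the 103 PBS peaks of the Wnt genes stood alone. Over all peaks, 31.4% in OVA and 28.3% in PBS did. Under a rule of identical start and end, 92 of 98 and 97 of 103 stood alone, against 89.7% and 89.3% of all peaks. By overlap the shares of the Wnt genes were thus below those of all peaks, and by identical ends above them. Peaks without a counterpart were weaker by their median fold enrichment, 3.59 in OVA and 3.45 in PBS, while the shared ones had medians of 6.69 and 7. Over the whole lists the medians were 2.87 and 3.45 for peaks without a counterpart and 6.5 and 5.87 for shared ones. A false discovery rate (FDR) of 0.05 was missed by 2 OVA peaks, on Wnt9b and Wnt10a, and by 3 PBS peaks, on Wls, Fzd8 and Tcf7l2, all 5 without a counterpart.

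The median fold enrichment of the Wnt gene peaks was 6.48 in OVA, with quartiles of 2.96 and 14.5, and 6.79 in PBS, with quartiles of 2.84 and 13.4. The medians over all peaks were 5.59 and 5.44. Genes with 3 or more peaks made up 34.1% of the marked Wnt genes in OVA and 37% in PBS, against 23% and 22.7% of all gene names. Fold enrichment spanned a wide range within the set, from 1.44 for a peak assigned to Wnt5b to 119 for Fzd8 in OVA and from 1.16 for Lrp5 to 32.2 for Fzd4 in PBS.

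**Figure D1:**
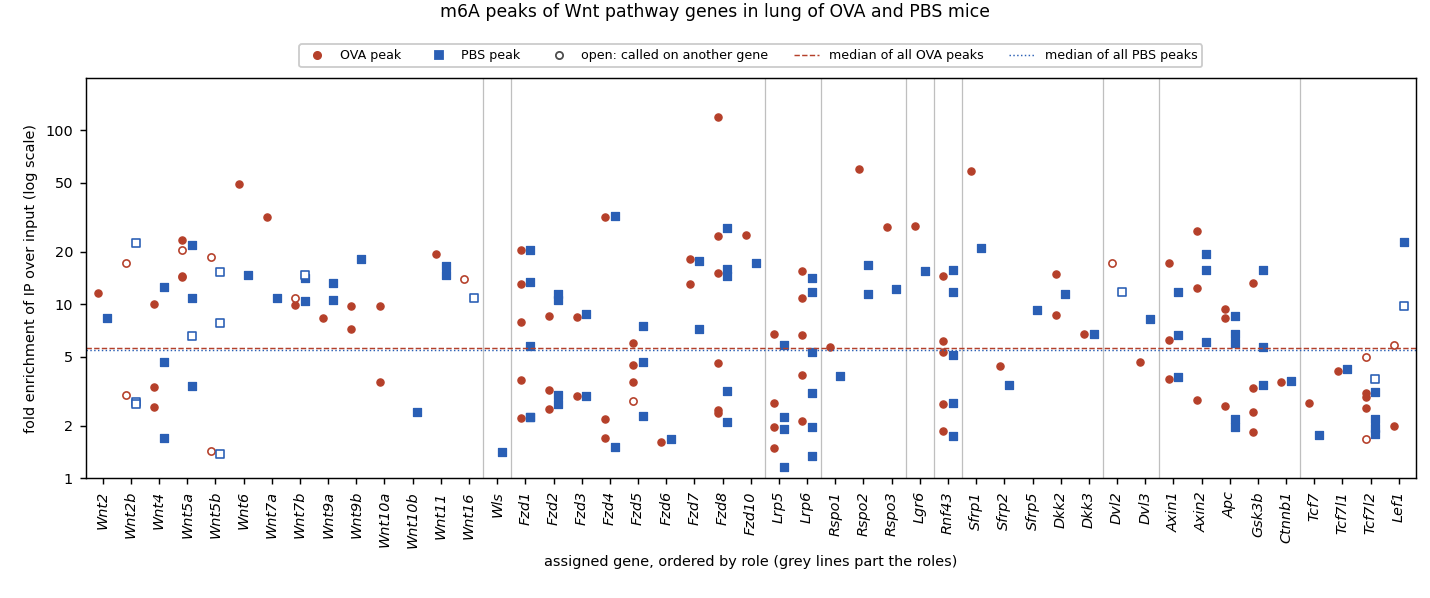
Fold enrichment of IP over input (log scale) of each peak assigned to the 47 Wnt pathway genes, with 1 point per peak, OVA peaks as circles and PBS peaks as squares. Open symbols mark peaks called on another gene, and the lines give the medians of all peaks, 5.59 for OVA and 5.44 for PBS. The highest OVA points, Fzd8 at 119, Rspo2 at 60.1 and Sfrp1 at 58.1, lie above every PBS point.

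By the authors' annotation, 52 of the OVA peaks lay in a 3' UTR (53.1%, 95% Wilson interval 43.3% to 62.6%), 24 in other exons (24.5%, 17% to 33.9%) and 22 in a 5' UTR (22.4%, 15.3% to 31.7%). Of the PBS peaks, 55 were in a 3' UTR (53.4%, 43.8% to 62.7%), 24 in other exons (23.3%, 16.2% to 32.3%) and 24 in a 5' UTR (23.3%, 16.2% to 32.3%). The 5' UTR share over all peaks was 11.6% in OVA and 11.4% in PBS. Among peaks assigned to protein-coding transcripts it was 25.8% for the Wnt genes and 20.4% for all in OVA, and 28.4% and 19.8% in PBS. Protein-coding transcripts held 67.3% of the OVA and 65% of the PBS peaks of the Wnt genes, against 41.8% and 42.5% of all peaks. The 5' UTR shares of the set and of the whole lists lay closer together once only protein-coding transcripts were counted. Wilson intervals cover counting error only.

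Among the 18 Wnt ligands, 14 had a peak by assigned name. Wnt2, a ligand of early lung specification, had 1 peak in each list, over the last exons at the 3' UTR, with fold enrichments of 11.6 in OVA and 8.33 in PBS. Wnt4 had 3 peaks in each list, and its strongest had 10.1 in OVA and 12.6 in PBS. Wnt9a had 1 OVA and 2 PBS peaks, Wnt9b 2 and 1, Wnt11 1 and 2, and Wnt7b 2 and 3.

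Wnt5a, a ligand that mostly signals without beta-catenin, had 4 peaks in each list. Its 5' UTR peak at chr14:28504959-28505889 had a fold enrichment of 23.3 in OVA, and the PBS peak there, which began at 28504779, had 22. Further along, the peak that began at 28510658 in both lists had 14.6 in OVA (log10 p -23.5) and 3.39 in PBS (log10 p -5.18), a ratio of 4.31. The OVA peak covered 393 exonic bases in 2 blocks and the PBS peak 212 in 1 block. A peak called on the overlapping gene Gm2670, at chr14:28510548-28511392 in OVA, had 20.6 in OVA and 6.58 in PBS, with log10 p values of -29 and -9.35. Since both pairs cover partly the same bases, they are not separate observations. The peak over the last exons had 14.4 in OVA and 10.9 in PBS. Within this 1 gene, then, the first peak was near equal in the lists and the next differed the most.

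The highest OVA value of a ligand was that of Wnt6, which is made in epithelia. Its 3' UTR peak at chr1:74784492-74784789 had a fold enrichment of 49.3 (log10 p -15.7), higher than all but 184 OVA peaks. The PBS peak at 74784522 to 74784730 had 14.8 (log10 p -4.18), and the ratio of OVA over PBS was 3.33. Wnt7a, another epithelial ligand, had a 3' UTR peak with 31.8 in OVA at chr6:91365236-91366255 (log10 p -32.2). In PBS it had 10.9 at 91365177 to 91366314 (log10 p -87.5), a ratio of 2.92. For Wnt7a the PBS peak had the stronger p value and the lower fold enrichment.

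Several ligands had a peak in 1 group alone. Wnt10a, which lies next to Wnt6, had an exon peak at chr1:74800779-74800869 with a fold enrichment of 9.75 (log10 FDR -1.76) and a 3' UTR peak at chr1:74804059-74804149 with 3.59 (log10 FDR -1.01), both in OVA. Wnt10b had an exon peak at chr15:98774196-98774376 in PBS, with 2.41 (log10 p -12.3). The second of the Wnt10a peaks did not pass an FDR of 0.05. Wnt9b, known from kidney development, had an OVA exon peak without counterpart at chr11:103730893-103730984, with 7.19 (log10 FDR -1.01), besides a shared 3' UTR peak with 9.75 in OVA and 18.3 in PBS. Wnt9a had a PBS 3' UTR peak at chr11:59333401-59333492 with 13.3 (log10 p -3.7) and a shared one with 8.39 in OVA and 10.6 in PBS.

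Wnt11, a ligand of cell movement in development, had a PBS peak in the 5' UTR at chr7:98835111-98835262, with a fold enrichment of 14.8 (log10 p -4.46), that overlapped no OVA peak. Its 3' UTR peak was found in both lists, with 19.5 in OVA and 16.6 in PBS. The 3' UTR peak of Wnt7b, a ligand of the developing lung epithelium, had 9.84 in OVA and 14.1 in PBS. At its start lay short peaks of 62 bases, called on AU022754 in OVA with 10.8 and on Wnt7b in PBS with 10.4. A longer PBS peak there, called on AU022754, had 14.8 and overlapped an OVA peak assigned to AU022754 with 18.5.

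The assigned name of a peak can differ from the gene on which it was called, and for some ligands all peaks of a list were of this kind. The 2 OVA and 3 PBS peaks assigned to Wnt2b were called on Cttnbp2nl, at distances of -42986 to -44152 bp from the assigned start. Among them is the highest PBS value under a ligand name, 22.4 at chr3:105003649-105004907 in a 3' UTR (log10 p -3530), with 17.2 in OVA. Peaks assigned to Wnt5b, 2 in OVA and 3 in PBS, were called on Erc1, and the 1 peak of Wnt16 in each list, with 13.9 in OVA and 10.8 in PBS, on Cped1. The values under these 3 ligand names are thus those of peaks called on neighbouring genes. Of peaks called on the ligand itself, Wnt5a had the highest PBS value.

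Peaks called on a ligand were also assigned elsewhere. A 3' UTR peak called on Wnt5b at chr6:119432590-119433723 was assigned to Adipor2 and had a fold enrichment of 38.5 in OVA and 15.7 in PBS. Wnt3a, the ligand most used to switch on beta-catenin in culture, had no peak by assigned name. A 3' UTR peak called on it was assigned to Arf1, with 12.2 in OVA and 11.8 in PBS. Counted by the gene on which peaks were called, 14 of the 18 ligands had one as well, with Wnt3a in and Wnt16 out. By this rule Wnt2b moved from both lists to PBS alone. Its 1 peak, at chr3:104946790-104946970 in a 3' UTR, was assigned to Gm43846 and had 2.8 (log10 p -10), without a counterpart. Wnt1, Wnt3 and Wnt8b had none by either rule.

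Of the 2 genes of ligand secretion, Wls carries Wnt proteins to the cell surface and Porcn attaches their lipid. Wls had 1 peak by assigned name, in PBS, in the 5' UTR at chr3:159839821-159839881, with a fold enrichment of 1.41 (log10 FDR -1.17), which did not pass an FDR of 0.05. A 3' UTR peak called on Wls and assigned to Gm43307 was in both lists, with 1.6 in OVA and 1.64 in PBS. By the gene on which peaks were called, Wls was therefore marked in both groups, and weakly. Porcn had no peak.

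The Frizzled receptors, which bind Wnt ligands through an extracellular cysteine-rich domain, had peaks in 9 of 10 genes in both lists, and Fzd9 had none. They held 27 OVA and 25 PBS peaks, of which 8 in each list were in a 5' UTR. Fzd8 had 6 OVA and 5 PBS peaks. Its 3' UTR peak at chr18:9214163-9215777 had a fold enrichment of 119 in OVA (log10 p -336), and only 21 of all OVA peaks had a higher one. In PBS the peak at 9213864 to 9215807 had 27.6 (log10 p -617), so that the ratio was 4.31. The OVA list had a separate peak with 4.62 where the PBS peak began, and thus the lists divide this stretch differently. An exon peak of Fzd8 with the same start and end in both lists had 15.2 in OVA and 14.6 in PBS. A further PBS peak at chr18:9216313-9216374 in the 3' UTR, with 2.11 (log10 FDR -0.721), overlapped no OVA peak.

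Fzd4, a receptor of vascular endothelium that also binds Norrin, had the highest PBS value of the receptors by assigned name. Its 3' UTR peak from 89407104 on chromosome 7 ended at 89408605 in OVA and at 89408575 in PBS, with fold enrichments of 31.8 and 32.2 and log10 p values of -1310 and -2040. This peak was strong and near equal in both lists. Fzd4 had 3 OVA and 2 PBS peaks in all, and an OVA 3' UTR peak at chr7:89409144-89409235 with 1.7 (log10 p -3.58) had no counterpart.

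Fzd1 had 5 peaks in each list and Fzd7 had 2. The main 3' UTR peak of Fzd1 had a fold enrichment of 20.5 in OVA and 20.6 in PBS, and that of Fzd7 had 18.2 and 17.8. These main peaks were near equal in the lists. The 5' UTR peak of Fzd7 had 13 in OVA and 7.21 in PBS. Fzd2 had 3 OVA and 4 PBS peaks, and the additional PBS peak lay in its 5' UTR at chr11:102604395-102604664, with 10.6 (log10 p -24.4). The shared peaks of Fzd2 had 3.22, 2.5 and 8.58 in OVA and 3.03, 2.67 and 11.4 in PBS.

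**Figure D2:**
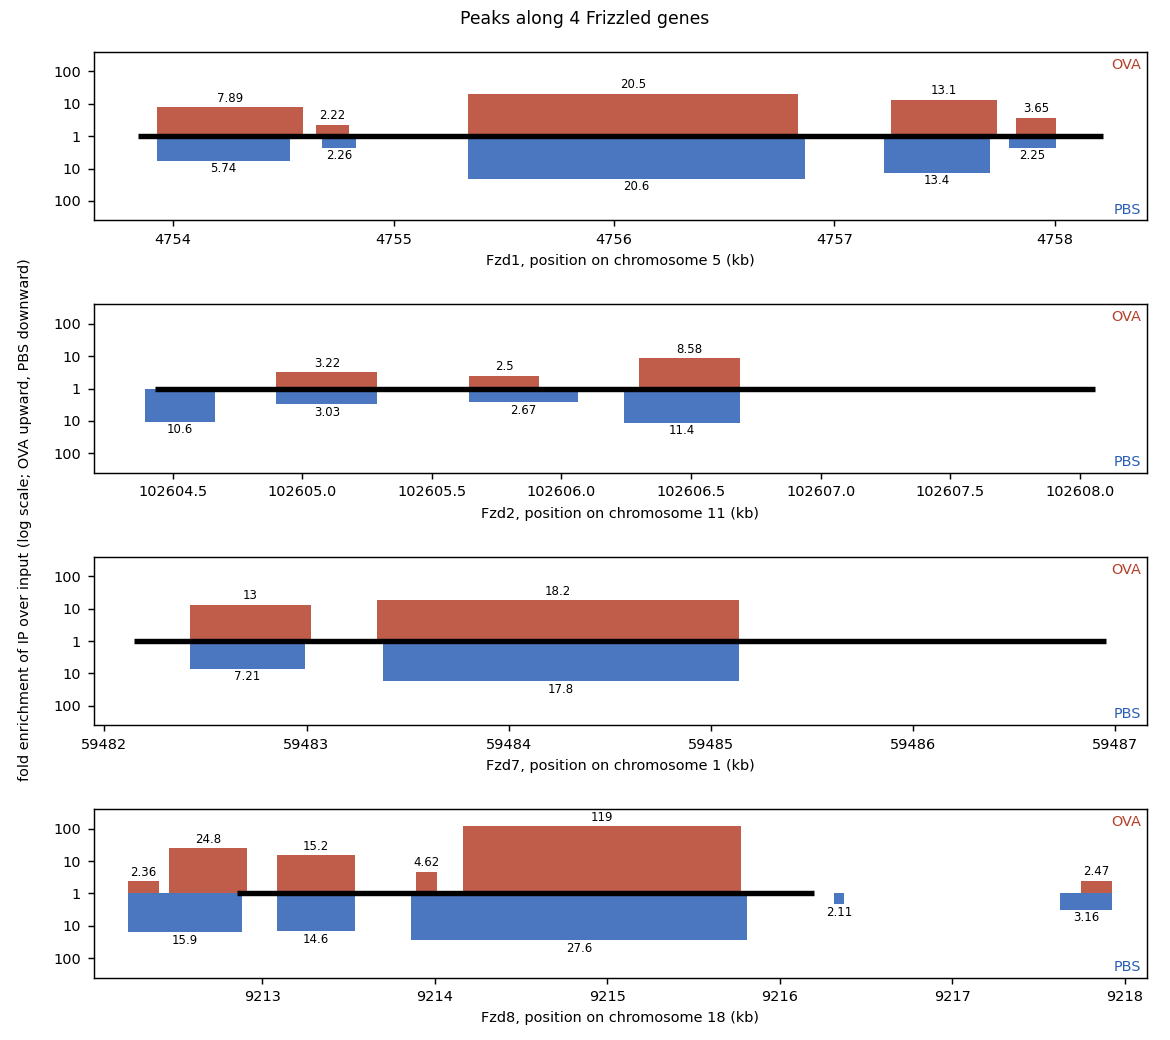
Peaks of Fzd1, Fzd2, Fzd7 and Fzd8 along their chromosomes (kb), with OVA peaks upward and PBS peaks downward, bar height for fold enrichment of IP over input on a log scale, and the black line for the RefSeq gene. The positions mostly match between the lists, except for the PBS peak with 10.6 at the start of Fzd2, the PBS peak with 2.11 beyond Fzd8 and the way the Fzd8 peaks are divided.

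Fzd10 had 1 peak in each list, with fold enrichments of 24.9 in OVA and 17.3 in PBS, and Fzd3, a receptor of axon guidance, had 2, the stronger with 8.5 and 8.79. Fzd5 had 4 OVA and 3 PBS peaks by name, of at most 5.97 and 7.54. The OVA peak of Fzd5 without a counterpart, at chr1:64786251-64786432 with 2.8 (log10 p -2.84) in a 3' UTR, was called on Plekhm3. A 3' UTR peak called on Fzd5 was assigned to Gm38058 and was far stronger, with 29.8 in OVA and 39.7 in PBS. Fzd6, a receptor of planar cell polarity, had 1 peak by name in each list, with 1.61 and 1.68, while the peaks called on it and assigned to Gm49786 had up to 13.6 and 11.7. For both receptors the assigned name left out the main peak.

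The co-receptors had several peaks each. Lrp5 had 4 in each list, with at most 6.76 in OVA and 5.85 in PBS, and Lrp6 had 5 and 6. The highest value of Lrp6 was in the 3' UTR in OVA, with a fold enrichment of 15.6 at chr6:134450342-134451003 (log10 p -113). In PBS it was in the 5' UTR, with 14.2 at 134541617 to 134566725 across an intron (log10 p -348). The same peaks had 11.8 in PBS and 10.8 in OVA, so that the order of the ends of Lrp6 differed between the lists. An exon peak of Lrp6 at chr6:134479696-134479757 was in PBS alone, with 1.34 (log10 p -5.16).

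R-spondins are secreted proteins that raise Wnt signalling by way of LGR receptors and the ubiquitin ligases Rnf43 and Znrf3, which remove Frizzled from the cell surface. Rspo2, needed for normal growth of the lung, had a single 3' UTR peak in OVA, at chr15:43021899-43022557, with a fold enrichment of 60.1 (log10 p -24.4). The PBS list had 2 peaks there, at 43021959 to 43022169 with 11.4 (log10 p -3.07) and at 43022258 to 43022587 with 16.8 (log10 p -4.83). The second, which overlapped the OVA peak most, gave a ratio of 3.58. Rspo3, an R-spondin of vessels, had a 5' UTR peak with 27.7 in OVA and 12.3 in PBS. Peaks assigned to Gm48159 cover partly the same bases, with 27.2 in OVA and 12.3 in PBS, and are not separate observations. Each Rspo3 peak was matched to a Gm48159 peak of the other list, so Rspo3 is not among the 84 pairs counted below. Rspo1 had a 3' UTR peak with 5.68 in OVA and 3.87 in PBS. Rspo4 had no peak.

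Lgr6, an R-spondin receptor, had a 3' UTR peak at chr1:134986261-134987788 in OVA with a fold enrichment of 28.2 (log10 p -166). In PBS it was at 134986321 to 134987848 with 15.5 (log10 p -183). Lgr4 had no peak by assigned name, but a 3' UTR peak called on it and assigned to Ccdc34 had 18.3 in OVA and 21.4 in PBS. The 2 receptors thus had opposite orders of their values. Lgr5, a stem cell marker in many epithelia, had none.

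Rnf43 had 5 peaks in each list. Its strongest was in the 5' UTR, with a fold enrichment of 14.5 in OVA at chr11:87663679-87664698 (log10 p -170) and 15.8 in PBS at 87663709 to 87664788 (log10 p -224). An exon peak at chr11:87732023-87733947 had 5.31 in OVA (log10 p -18.2). The PBS peak there, at 87731873 to 87734192, had 11.8 (log10 p -57.9), a ratio of PBS over OVA of 2.22. Its exonic blocks covered 603 bases against 392 in OVA. Znrf3 had no peak by assigned name. Of the 3 OVA and 2 PBS peaks called on it, all assigned to the neighbour Kremen1, the strongest had 70.7 in OVA at chr11:5280897-5283344 and 14.4 in PBS at 5280897 to 5282482. Among peaks called on the 60 genes, only the Fzd8 peak had a higher OVA value. The other shared Znrf3 peak, at chr11:5279462-5279911 in both lists, had the opposite order, with 6.48 in OVA and 9.77 in PBS.

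Secreted inhibitors bind Wnt ligands, as the Sfrp proteins do, or the co-receptors, as Dkk1 and Dkk2 do. Sfrp1 had 1 peak in each list, in the 3' UTR, at chr8:23446248-23447057 in OVA with a fold enrichment of 58.1 (log10 p -543). In PBS it lay at 23446428 to 23447057 with 21.1 (log10 p -70.1), and the ratio was 2.75. Sfrp2 had 1 exon peak in each list, with 4.45 in OVA and 3.45 in PBS. Sfrp5 had a 3' UTR peak in PBS alone, at chr19:42198296-42198594, with 9.31 (log10 p -17.1). The Sfrp genes thus ranged from a strong shared peak to none, as Sfrp4 had no peak.

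No peak of Dkk2 was shared. In OVA it had a 5' UTR peak at chr3:132085769-132085919 with a fold enrichment of 14.9 (log10 p -4.18) and an exon peak at chr3:132178003-132178064 with 8.73 (log10 FDR -1.45). In PBS it had a 3' UTR peak at chr3:132178122-132178273 with 11.4 (log10 p -3.73). The last 2 lie close together without sharing a base. Dkk3, which is related to the others by sequence, had a 3' UTR peak in each list, with 6.75 and 6.79, and Dkk1 had no peak.

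Dishevelled proteins pass the signal on from Frizzled. The peak assigned to Dvl2, in a 3' UTR at chr11:69998564-69999652 with a fold enrichment of 17.3 in OVA (log10 p -405) and at 69998505 to 69999652 with 11.7 in PBS (log10 p -279), was called on the neighbour Phf23. Peaks called on Dvl2 were assigned to Mir324, the stronger with 10.5 in OVA and 11.9 in PBS. Dvl3 had 1 exon peak in each list by name, with 4.67 and 8.18. Dvl1 had none.

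The destruction complex holds the scaffolds Axin1, Axin2 and Apc and the kinase Gsk3b. Axin2, itself a target gene of the pathway, had 3 peaks in each list. Its 3' UTR peak, from 108949406 on chromosome 11, ended at 108949945 in OVA with a fold enrichment of 26.5 (log10 p -304) and at 108950035 in PBS with 19.5 (log10 p -476). These were the highest values of the complex by assigned name. The weaker 5' UTR peak from 108920438 ended at 108920976 in OVA with 2.82 (log10 p -2.79) and at 108921006 in PBS with 6.1 (log10 p -13.6), a ratio of PBS over OVA of 2.16. The 2 ends of Axin2 thus had opposite orders.

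Gsk3b had 4 OVA and 3 PBS peaks. In its 5' UTR the OVA list had peaks at chr16:38089360-38089810 with a fold enrichment of 13.2 and at chr16:38089959-38090559 with 2.4 (log10 p -82.4). The PBS list had a single peak there, at 38089360 to 38090559, with 15.8 (log10 p -188). The second OVA peak overlapped it most and gave the ratio of PBS over OVA of 6.58, which depends on how the stretch was divided, since the first OVA peak was near the PBS value. Gsk3b also had a PBS peak in the 5' UTR at chr16:38089000-38089151 with 3.45 (log10 p -4.96) and an OVA peak in the 3' UTR at chr16:38244405-38244466 with 1.85 (log10 p -7.22), each without a counterpart.

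Axin1 had 3 peaks in each list, the strongest with a fold enrichment of 17.2 in OVA and 11.8 in PBS. Apc had 3 OVA and 5 PBS peaks by name, of at most 9.39 and 8.61, all overlapping a peak of the other list. The 3' UTR peak called on Apc and assigned to Srp19 was stronger, with 24.6 in OVA and 14.4 in PBS. Ctnnb1, the gene of beta-catenin, had 1 peak in each list with 3.58 and 3.62, below the median of all peaks, although its log10 p was -1030 in OVA and -618 in PBS. It was thus the reverse of Rspo2, whose high fold enrichment came with a far less extreme p value.

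The TCF/LEF factors bind DNA and recruit beta-catenin. Lef1 had 2 peaks in each list, all at its start. The peaks called on Lef1 itself had a fold enrichment of 2 in OVA, at chr3:131110620-131110771 in the 5' UTR (log10 p -2.72), and 22.7 in PBS, at 131110500 to 131110891 (log10 p -30.1). The peaks called on the overlapping Gm43352 had 5.87 in OVA at 131110304 to 131110781 (log10 p -7.82) and 9.83 in PBS. Both were higher in PBS, but the 2 pairs cover partly the same bases and are not separate observations. The values 5.87 and 22.7 were the highest of the TCF/LEF factors in each list.

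Tcf7l2 had 5 peaks in each list, of at most 5.01 in OVA and 3.73 in PBS, and these highest ones were called on Vti1a. An OVA 3' UTR peak at chr19:55576691-55576782 with 1.69 (log10 p -4.61), also called on Vti1a, and a PBS 3' UTR peak at chr19:55932186-55932247 with 1.81 (log10 FDR -1.08) had no counterpart. Tcf7, a factor of T cells, had 1 peak in each list, with 2.71 and 1.78, and Tcf7l1 had 1, with 4.14 and 4.27. The peaks of Tcf7, Tcf7l1 and Tcf7l2 all had fold enrichments below the median of their list.

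Over the set, 84 pairs of peaks overlapped each other most in both directions and had the same Wnt gene as assigned name. The median ratio of OVA over PBS fold enrichment was 1.07, and it was 1.1 over all 20532 such pairs. The OVA value was the higher in 50 of the 84 (59.5%), against 61.4% of all pairs. The fold enrichment was at least 2 times higher in OVA in 7 pairs (8.33%), against 7.77% of all pairs, and at least 2 times higher in PBS in 3 (3.57%), against 4.93%. These shares were near those of all pairs. The 7 pairs were on 6 genes, Wnt5a, with 2 that cover partly the same bases, and Wnt6, Wnt7a, Fzd8, Rspo2 and Sfrp1. The 3 were on Rnf43, Axin2 and Gsk3b. When only peaks called on the same gene were paired, a rule chosen after the data were seen that still required a Wnt gene as assigned name, Rspo3 with 2.25 joined the first and Lef1 with 11.3 the second. The 7.77% and 4.93% of all pairs belong to the first pairing rule, and no share over all pairs was computed under this one. The peaks called on Znrf3 and Wnt5b but assigned elsewhere, given above, are not in these counts.

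In all, 12 OVA and 12 PBS peaks assigned to the Wnt genes (12.2% and 11.7%) were called on another gene, while the assigned and the calling gene differed for 22.5% of all OVA and 22.8% of all PBS peaks. A further 19 OVA and 20 PBS peaks were called on 1 of the 60 genes and assigned to a gene outside the set. By the calling gene, 49 of the 60 genes had a peak, 45 in both lists. The 50.6% of protein-coding genes with a peak is by assigned name, and no share over all genes was computed by the calling gene. By neither rule did Wnt1, Wnt3, Wnt8b, Porcn, Fzd9, Rspo4, Lgr5, Sfrp4, Dkk1 and Dvl1 have one, and these 10 genes are the unmarked members of the set.

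Peaks at the starts of Wnt genes were set against RefSeq promoter windows (GRCm38.p6), from 250 bases before to 50 after a gene's start, which matched 41 of the 60 genes in 51 windows. Peaks reached into windows of Rnf43, Tcf7l2 and Lef1 in both lists and of Wnt11 and Gsk3b in PBS. Only the part of a peak inside a window was read, 13 to 69 bases for Lef1 and 51 each for Wnt11 and Gsk3b. The rest of these peaks was not searched. Sequences of Rnf43 and Tcf7l2 are shown because, among the parts read, theirs alone held words of the m6A motif. That motif is 5 bases long, with A, G or T first, A or G second, then AC, and A, C or T last, and it was searched on the transcribed strand only. Any of its 18 words occurred in 98.4% of all 32851 windows, a median of 5 times, so a match here is a description of the letters and no more. TGACT was in 25.4% of the windows, AGACT in 26.8% and GGACA in 28.2%. These shares are for whole windows, while the stretches shown are shorter, with 241 bases for Rnf43 and 30 for Tcf7l2. No share was computed for stretches of those lengths.
The Rnf43 stretch, chr11:87662841-87663081 on the plus strand, is the OVA peak before the RefSeq start, annotated by the authors as an exon, with a fold enrichment of 1.87 in OVA and 1.75 in PBS. The capitals mark the words that start at 87662843, 87662910 and 87662975.
Rnf43: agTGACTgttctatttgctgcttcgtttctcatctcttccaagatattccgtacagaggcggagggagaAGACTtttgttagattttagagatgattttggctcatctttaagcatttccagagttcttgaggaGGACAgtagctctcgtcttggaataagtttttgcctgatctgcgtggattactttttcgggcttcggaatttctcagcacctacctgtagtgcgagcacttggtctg
The Tcf7l2 piece, chr19:55741825-55741854 on the plus strand, is part of the 5' UTR peak that ran from 55741819 to 55742269 in both lists, with 2.95 in OVA and 3.14 in PBS. Its capitals mark AGACT, which starts at 55741837.
Tcf7l2: atctccgctcccAGACTactccgttcctcc

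Other genes of the pathway were looked up in the same way. Of 70 such genes, 49 had a peak by assigned name, 45 of them in both lists, 2 in OVA alone and 2 in PBS alone. Over all genes, 50.6% of the protein-coding ones had a peak, and 11.5% and 7.92% of the names with a peak were in the OVA or the PBS list alone. Planar cell polarity genes, which act without beta-catenin, were marked in 11 of 13, with Celsr3 (12.8) and Daam1 (1.67) in OVA alone by assigned name. Peaks called on Daam1 were in both lists. Other cytoplasmic components were marked in 20 of 24, nuclear cofactors in 11 of 16, other secreted and surface modulators in 5 of 13, and non-canonical receptors in 2 of 4. Notum, an enzyme that removes the lipid of Wnt proteins, had a PBS peak alone, with a fold enrichment of 4.93, and the ligase subunit Btrc one with 8.88, while peaks called on Btrc were in both lists. Frat2, which binds the kinase Gsk3b, had 66 in OVA and 29.7 in PBS at its strongest. Some genes without a peak by assigned name had peaks called on them: Ror2, Daam2, Draxin, Rnf146, Dact3, Pygo1 and Ctbp2 in both lists, and Ctnnbip1 in OVA alone. Those of Ror2, a non-canonical receptor, had a fold enrichment of at most 20.2 in OVA and 60.2 in PBS. Sost and Tle5, marked in both lists by assigned name, had no peak called on them. The highest peaks assigned to Kremen1 were those called on Znrf3, given above. Frat2 and Ror2 were singled out after their values were seen.

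Of 19 known Wnt target genes besides Axin2, 14 had a peak by assigned name, against 50.6% of protein-coding genes. Both lists held 12 of them, 1 was in OVA alone and 1 in PBS alone. Over all gene names with a peak, 11.5% were in OVA alone and 7.92% in PBS alone. Myc had the highest values by assigned name, with fold enrichments of 75.5 in OVA and 79 in PBS. Sox9 had 30.7 and 38.5, and Bambi 35.4 and 26.3. Twist1 had a peak in OVA alone, with 8.21, and Ascl2 in PBS alone, with 10.4. At an FDR under 0.05 the Twist1 peak was lost and no target was in OVA alone by assigned name. The shares over all gene names are without this threshold. Peaks called on Jun had at most 97.4 in OVA and 63.3 in PBS, against 9.32 and 9.27 by name. Cd44 and Birc5, without a peak by name, had peaks called on them, Cd44 in both lists and Birc5 in OVA alone, with 3.61.

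Markers of lung cell types had peaks by assigned name in 25 of 40 genes, against 50.6% of protein-coding genes, 23 of them in both lists and 2 in OVA alone, against 11.5% of all gene names with a peak. These were 10 of 15 markers of epithelium, 4 of 5 of endothelium, 3 of 5 of mesenchyme, 6 of 9 of lymphoid and myeloid cells and 2 of 6 of eosinophils and mast cells. Cd4 (1.71) and Mcpt4 (8.73) had a peak by name in OVA alone, but peaks called on Cd4 were in both lists, with at most 3.38 in OVA and 4.56 in PBS. Ccr3 had 13 in OVA and 6.17 in PBS. Siglecf, Epx, Prg2 and Cpa3 had none. A peak needs the transcript to be present, and the part of cell composition in the differences between the Wnt gene lists was not tested.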

How the data were processed

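Reads of 3 OVA and 3 PBS mice were cleaned (FASTP) and aligned to the Ensembl mouse genome (HISAT2) by the authors, who called peaks in exomePeak and annotated these by ChIPseeker. HISAT2 and ChIPseeker are named in the submitters' processing notes, and tool versions are not given in the sources used here. They deposited 1 peak list per group, and how replicates were combined is not stated. As deposited, fold enrichment is a ratio, IP to input. The deposited score is the log10 of a peak's p value or FDR. Positions were checked against RefSeq on GRCm38: 97.7% of OVA and 97.8% of PBS peaks called on a protein-coding gene overlapped it there.

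Peaks were matched by at least 1 bp of exonic block overlap. The 60 genes, the other lists and the rules were chosen with earlier results of these data known. Every gene with a peak is named, with position and statistics for those with a peak in 1 list alone or without a counterpart, the highest of each role and pairs that differed at least 2 times. Genes of the other lists, peaks called on a Wnt gene and assigned elsewhere, and further values were named after they were seen. Python 3.11.15, numpy 2.4.6, pandas 2.3.3, scipy 1.17.1 and matplotlib 3.10.9 were used. The overlap code was tested on simulated peaks. Input expression and differential peaks were not analysed here.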

Additional observations from a re-analysis of the deposited data

How the results depend on the processing

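The counts, shares and medians were recomputed under alternative settings, though not every setting was run for every result. This gave 85 recomputed values. Of these, 73 stayed within 1.5 times the count or within the 95% interval of the share or median. The rule for overlap moved the most. With 50% of both peaks required, 22 of 98 OVA and 25 of 103 PBS peaks of the Wnt genes stood alone. Over all peaks the shares were 31.4% and 28.3%. With identical start and end, 92 of 98 and 97 of 103 stood alone, against 89.7% and 89.3% of all peaks. At a fold enrichment of at least 2, genes in the OVA list alone numbered 2 among the Wnt genes, 1 among the other pathway genes and 2 among the targets, and at an FDR under 0.05 the targets had 0. The share over all gene names, 11.5% for OVA alone, was taken without these thresholds, and none was computed with them. With only the highest peak of each gene, the median fold enrichment was 13.6 in OVA and 12.1 in PBS, by construction. In protein-coding transcripts alone, 14.9% of the PBS peaks of the Wnt genes lay in other exons. Divided by the median ratio of all pairs, the median ratio of the Wnt gene pairs was 0.971 in place of 1.07 and so on the other side of 1, by construction, since all pairs were divided by 1.1. Alternatives that kept peaks assigned to and called on the same Wnt gene, or paired peaks called on the same gene, were chosen after seeing the data. No paired analysis was possible because each group has 1 list for its 3 mice together. The number of mice and the depth behind a single peak limit all comparisons between the lists.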

Other observations

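The lists carry their own gene ontology annotation. By it, 140 gene names with a peak in either list belonged to the term Wnt signaling pathway, among them all 47 marked Wnt genes described above and 93 others. Both lists held 128 of the 140, 5 had a peak in OVA alone and 7 in PBS alone. Over all gene names with a peak, 11.5% were in OVA alone and 7.92% in PBS alone. The term negative regulation of canonical Wnt signaling pathway had 89 gene names, with 2 in OVA alone and 6 in PBS alone. Its positive counterpart had 74, with 1 in OVA alone and 5 in PBS alone. Whether these numbers differ between the groups was not tested.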
